A study of Mus musculus with 13 samples.

Results

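A set of 10 genes of fibroblast growth factor (FGF) signalling were followed in mouse lung: the ETS transcription factors Etv1, Etv4 and Etv5, the feedback inhibitors Spry1, Spry2, Spry4, Dusp4 and Dusp6, and the receptors Fgfr1 and Fgfr2. They are 10 of the 20270 genes in the tables and were taken by their symbols. Etv4 was selected on its values in these libraries, since it was much higher after bleomycin and less so in the knockout, so its levels are given as a description with no test. The other 9 were listed with it as members of its family or pathway, also with earlier results of these data known. The lung RNA came from 4 wildtype (WT) control mice and from mice given bleomycin, 5 WT and 4 CB1R KO, so CB1R KO bleomycin and control lungs differed in both genotype and treatment. CB1R is the cannabinoid receptor that Cnr1 encodes, and it was deleted in the whole body of the CB1R KO mice. The C57BL/6J mice were male and 13 weeks old. The CB1R KO mice had the same strain background, and no separate age or sex is given for them in the sources used here. Bleomycin, an agent that injures the lung and leads to fibrosis, was given once into the oropharynx at 1 U per kg and the lower right lobe was taken at day 14, with saline in the control mice. No CB1R KO lungs without bleomycin were analysed here, so a difference between both bleomycin groups cannot be divided into a part present before bleomycin and a part present after it. Control libraries are named 3, 21, 24 and 26, WT bleomycin libraries 4, 2, 5, 4-B2 and 7, and CB1R KO libraries 8, 9, 10 and 11, as the labels number the mice.

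When an FGF ligand binds its receptor at the cell surface, the receptor passes the signal through Ras to the kinase ERK, which switches on target genes in the nucleus. The PEA3 factors Etv1, Etv4 and Etv5 are DNA-binding proteins among those targets. Sprouty proteins, encoded by the Spry genes, hold back the pathway between receptor and ERK, and the phosphatases Dusp4 and Dusp6 remove the activating phosphates from ERK, so that a signal raises its own inhibitors. In the lung, FGF signals from the mesenchyme through Fgfr2 shape the airways and alveoli and maintain alveolar type II cells, and Etv5 is abundant in those cells, while Fgfr1 is prominent in mesenchyme.

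Levels are given as CPM (read counts scaled to a common library size), and different genes are compared in TPM, which also divides by transcript length. Differences are log2 fold changes with their standard errors (SE), and each adjusted p comes from the quasi-likelihood test of edgeR, adjusted after Benjamini and Hochberg across the 15315 genes that were tested and read at a threshold of 0.05. Of the 13 libraries 12 held 14615904 to 16662580 estimated counts, and CB1R KO library 11 held 53463884. The labels of control library 26 and of WT bleomycin libraries 4-B2 and 7 are capitalised and the other 10, with every CB1R KO library, are in lower case, so values among lower-case labels are given where they bear on a result. The reads did not check the genotype, since Cnr1 was at 2.47 to 5.63 CPM in the libraries labelled CB1R KO, 1.62 to 4.10 CPM in control and 3.46 to 6.97 CPM in WT bleomycin, and directions rest on the labels.

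In WT lungs after bleomycin the pathway did not move as a block. Etv4 was higher by far, Spry4, Dusp6 and Fgfr1 rose, Etv1, Etv5, Spry1, Spry2 and Fgfr2 fell, and Dusp4 did not pass the test. Of the 9 members tested, 8 passed, 3 higher and 5 lower, where 48.9% of all genes tested passed, 25.0% higher and 23.9% lower. Their median log2 fold change was -0.26, against -0.01 over all genes. In CB1R KO against WT bleomycin lungs 1 of the 9 passed, Spry4, which was lower, where 0.979% of all genes passed, 0.359% higher and 0.620% lower. The count of unadjusted p under 0.05 in that comparison was 4 of the 9, and the median log2 fold change of the 9 was -0.14, against 0.00 over all genes. In CB1R KO bleomycin against control lungs 5 of the 9 passed, 1 higher and 4 lower, where 35.4% of all genes passed, 19.0% higher and 16.3% lower.

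**Figure D1:**
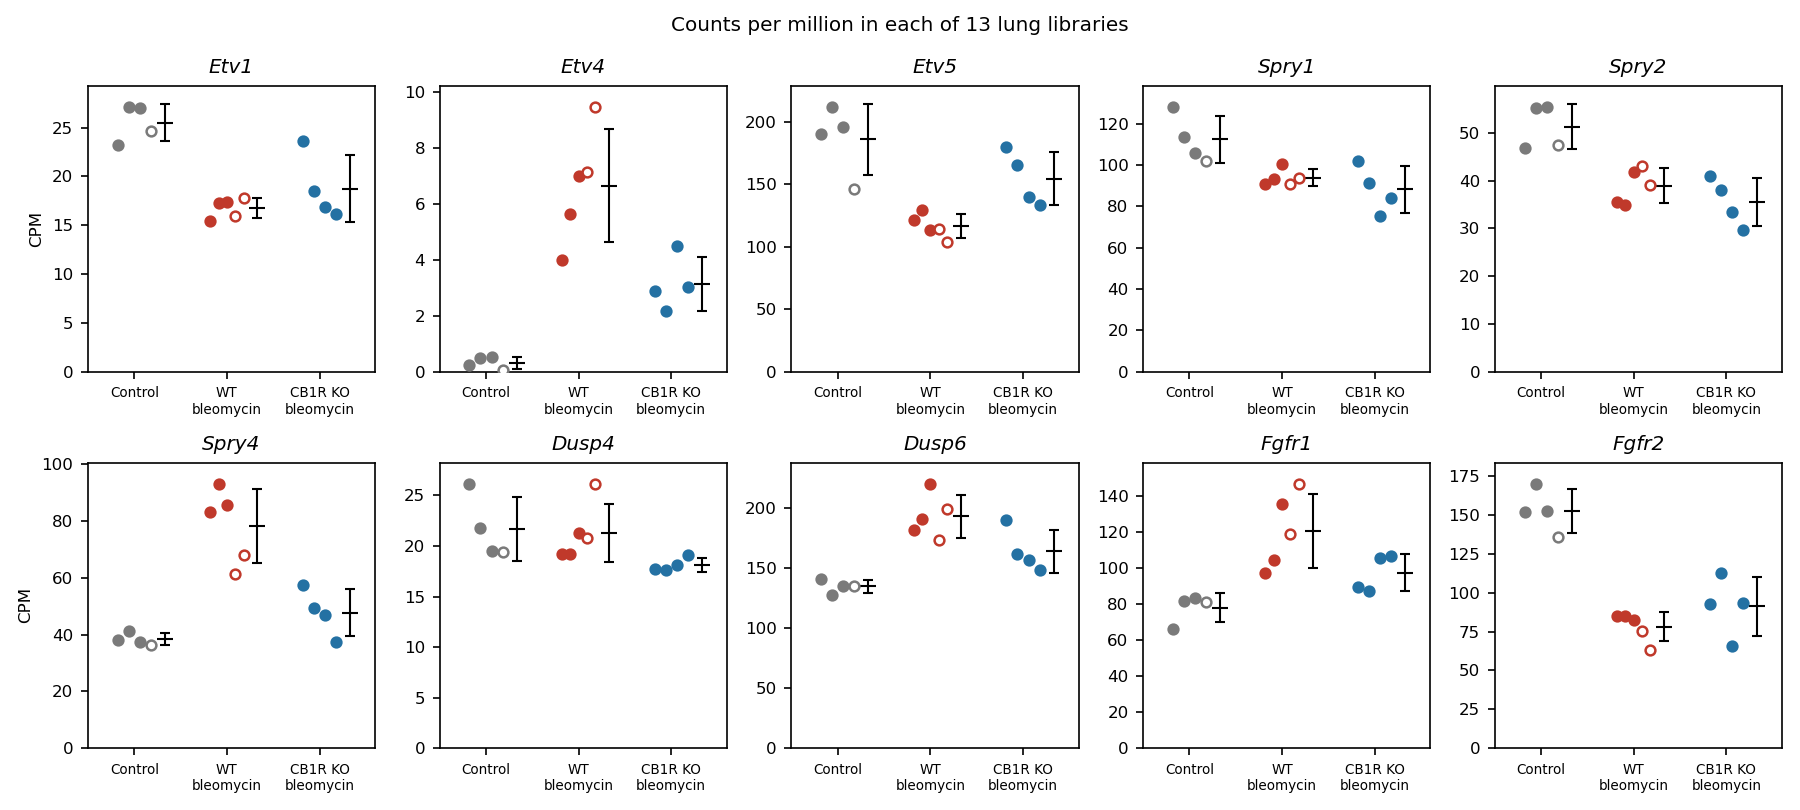
CPM (y axis, linear, from 0) of each of the 10 genes in each library, by group; filled points are libraries with lower-case labels, open points those with capitalised labels, and bars are the mean ± SD of 4, 5 and 4 libraries. Etv4 sits under 1 CPM in every control library and at 3.99 to 9.44 CPM in WT bleomycin, while Fgfr2 and Etv5 move the other way.

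Etv4 was close to the detection limit in control lungs. It had 4.27, 7.67, 8.06 and 1.43 estimated counts in control libraries 3, 21, 24 and 26, which are 0.238, 0.481, 0.512 and 0.064 CPM. WT bleomycin libraries 4, 2, 5, 4-B2 and 7 held 3.99, 5.62, 7.00, 7.13 and 9.44 CPM. CB1R KO libraries 8, 9, 10 and 11 held 2.88, 2.17, 4.47 and 3.01 CPM. Both bleomycin groups lay above every control library, and of the CB1R KO libraries 3 lay below every WT bleomycin library while library 10 lay above WT library 4. Mean Etv4 was 0.324 ± 0.212 CPM (SD, n = 4) in control lungs. It was 6.64 ± 2.02 CPM (SD, n = 5) with bleomycin in WT, 20.5 times the control mean, and 3.13 ± 0.966 CPM (SD, n = 4) with bleomycin in CB1R KO, 9.68 times the control mean. The fitted log2 fold change was 4.33 (SE 0.40) for WT bleomycin against control, 3.24 (SE 0.42) for CB1R KO bleomycin against control and -1.08 (SE 0.30) for CB1R KO against WT bleomycin. The pair of WT libraries with capitalised labels held the highest Etv4, and among lower-case labels alone the last difference was -0.83 (SE 0.28), from 5.54 ± 1.51 CPM (SD, n = 3) to 3.13 ± 0.966 CPM (SD, n = 4).

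Etv5 and Etv1, the other PEA3 factors, fell in WT bleomycin lungs, and Etv1 also fell in CB1R KO bleomycin lungs, both against control. Etv5 was at 190, 212, 196 and 146 CPM in control libraries 3, 21, 24 and 26. In WT bleomycin libraries 4, 2, 5, 4-B2 and 7 Etv5 was at 121, 129, 113, 114 and 104 CPM. CB1R KO libraries 8, 9, 10 and 11 had 179, 165, 140 and 134 CPM. Every WT bleomycin library was thus below every control library and below every CB1R KO library. The log2 fold change of Etv5 in WT bleomycin against control was -0.68 (SE 0.11, adjusted p = 0.000149 from edgeR). Between CB1R KO and WT bleomycin it was 0.41 (SE 0.11) and did not pass (adjusted p = 0.082 from edgeR), and between CB1R KO bleomycin and control it was -0.27 (SE 0.12, adjusted p = 0.0819 from edgeR). Without CB1R KO library 10 the difference of Etv5 between CB1R KO and WT bleomycin was 0.45 (adjusted p = 0.0476 from edgeR), and it was 0.41 with DESeq2 (adjusted p = 0.0183). It did not pass under the other 22 of 24 alternative settings, with an adjusted p of up to 0.285. The difference of Etv5 between CB1R KO bleomycin and control passed under 4 of the 24. Control library 26, with a capitalised label, held the lowest Etv5 of the controls. Among lower-case labels Etv5 was 199 ± 11.0 CPM (SD, n = 3) in control and 154 ± 21.4 CPM (SD, n = 4) in CB1R KO bleomycin lungs.

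Etv1 ranged over 23.2 to 27.1 CPM in control, 15.5 to 17.8 CPM in WT bleomycin and 16.1 to 23.6 CPM in CB1R KO bleomycin lungs. It fell in WT bleomycin against control by 0.60 on the log2 scale (SE 0.11, adjusted p = 0.00032 from edgeR) and in CB1R KO bleomycin against control by 0.45 (SE 0.11, adjusted p = 0.00653 from edgeR). The second call was lost with limma on log2 TPM at either pseudocount (adjusted p = 0.0941 and 0.101). CB1R KO library 8 alone lay within the control range, and between CB1R KO and WT bleomycin the log2 difference of Etv1 was 0.16 (SE 0.11, adjusted p = 0.49 from edgeR).

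Etv5 remained the most abundant PEA3 factor in each of the 13 libraries. Control lungs averaged 72.1 ± 11.96 TPM of Etv5 (SD, n = 4), WT bleomycin lungs 45.7 ± 4.16 TPM (SD, n = 5) and CB1R KO bleomycin lungs 62.2 ± 9.52 TPM (SD, n = 4). Etv1 averaged 8.20, 5.38 and 6.11 TPM in the same order and Etv4 averaged 0.213, 4.31 and 2.12 TPM. Etv4 made up 0.093% to 0.388% of the summed TPM of the 3 factors in control, 4.73% to 11.9% in WT bleomycin and 1.99% to 4.69% in CB1R KO bleomycin libraries. The shares of both bleomycin groups did not overlap, but the highest CB1R KO share, in library 10, was close to the lowest WT share, in library 4. The sum of the 3 factors was 61.3 to 88.3 TPM in control, 50.9 to 61.0 TPM in WT bleomycin and 60.3 to 82.7 TPM in CB1R KO bleomycin lungs, so the larger share of Etv4 came with a lower total in WT bleomycin.

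**Figure D2:**
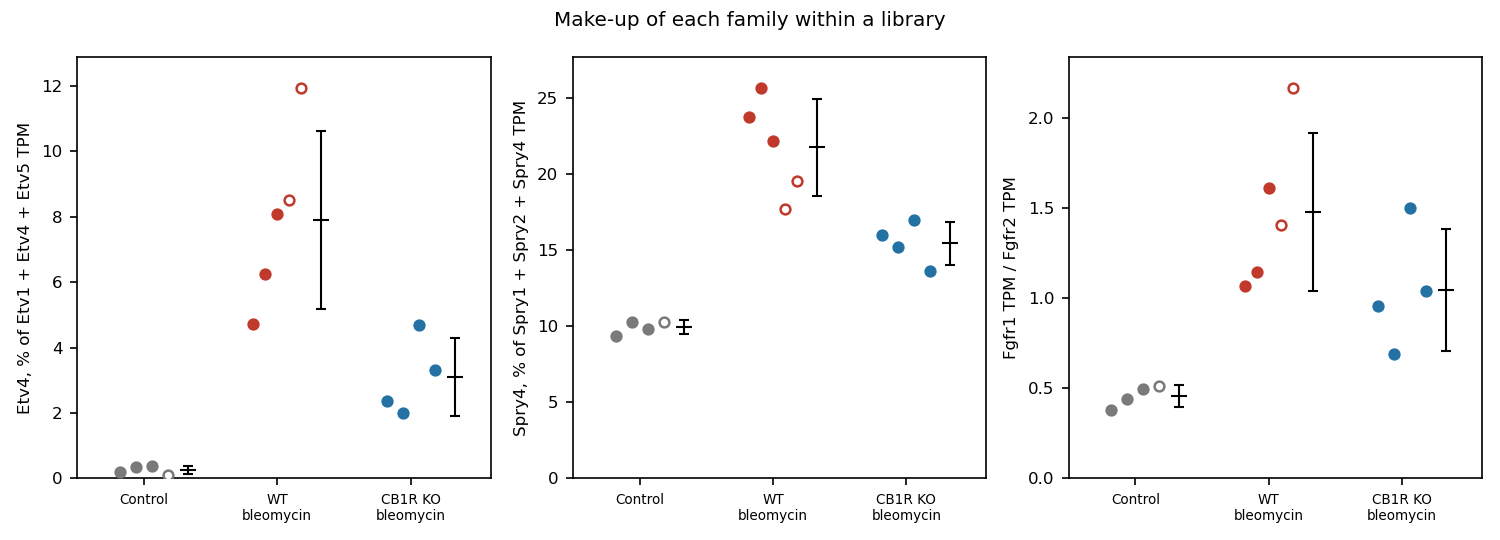
Etv4 as a percentage of the TPM of Etv1, Etv4 and Etv5 (left), Spry4 as a percentage of the TPM of Spry1, Spry2 and Spry4 (middle) and the ratio of Fgfr1 to Fgfr2 TPM (right) in each library; filled and open points mark lower-case and capitalised labels and bars are mean ± SD. Median Etv4 shares were 0.265%, 8.08% and 2.84%, median Spry4 shares 10.1%, 22.2% and 15.6%, and median receptor ratios 0.469, 1.41 and 0.998 in control, WT bleomycin and CB1R KO bleomycin.

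Among the Sprouty genes, Spry4 rose while Spry1 and Spry2 fell. Spry4 was at 38.1, 41.2, 37.5 and 36.3 CPM in control libraries 3, 21, 24 and 26. WT bleomycin libraries 4, 2, 5, 4-B2 and 7 had 82.9, 93.0, 85.4, 61.3 and 68.1 CPM of Spry4. CB1R KO libraries 8, 9, 10 and 11 had 57.3, 49.2, 46.9 and 37.3 CPM. Every WT bleomycin library was above every library of the other groups, and CB1R KO library 11 lay within the control range. Spry4 was 2.04 times as high in WT bleomycin as in control lungs by the mean CPM (log2 fold change 1.03, SE 0.13, adjusted p = 1.9e-05 from edgeR). It was lower in CB1R KO than in WT bleomycin (log2 fold change -0.72, SE 0.13, adjusted p = 0.0235 from edgeR). Against control it was 0.31 higher in CB1R KO bleomycin lungs on the log2 scale (SE 0.14), which did not pass (adjusted p = 0.0893 from edgeR).

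The WT libraries with capitalised labels, 4-B2 and 7, held the lowest Spry4 of the WT bleomycin libraries, and the difference of CB1R KO was as large without them. Among lower-case labels Spry4 was 87.1 ± 5.26 CPM (SD, n = 3) in WT bleomycin and 47.7 ± 8.24 CPM (SD, n = 4) in CB1R KO, a log2 difference of -0.88 (SE 0.12, adjusted p = 0.0276 from edgeR). The call was lost without WT library 5 (log2 fold change -0.68, adjusted p = 0.0613), without CB1R KO library 9 (-0.74, adjusted p = 0.0801) and without CB1R KO library 11 (-0.61, adjusted p = 0.0752, all from edgeR), and with limma on log2 TPM at either pseudocount (adjusted p = 0.0549 and 0.0581).

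Spry1 ranged over 102 to 128 CPM in control, 90.8 to 101 CPM in WT bleomycin and 75.4 to 102 CPM in CB1R KO bleomycin libraries. It fell by 0.26 on the log2 scale in WT bleomycin (SE 0.08, adjusted p = 0.02 from edgeR) and by 0.35 in CB1R KO bleomycin (SE 0.09, adjusted p = 0.00747 from edgeR), both against control. The call in WT bleomycin was lost without control library 3, with a log2 fold change of -0.19 (adjusted p = 0.0799 from edgeR), among lower-case labels (-0.28, adjusted p = 0.061 from edgeR) and with limma on log2 TPM at either pseudocount (-0.22 in each, adjusted p = 0.0734 and 0.0737). Spry2 ranged over 46.9 to 55.4 CPM in control, 35.0 to 43.1 CPM in WT bleomycin and 29.7 to 40.9 CPM in CB1R KO bleomycin libraries, and every bleomycin library was below every control library. It fell by 0.40 (SE 0.10, adjusted p = 0.00418 from edgeR) in WT bleomycin and by 0.54 (SE 0.10, adjusted p = 0.00135 from edgeR) in CB1R KO bleomycin, both against control. Between CB1R KO and WT bleomycin the log2 differences were -0.09 (SE 0.08) for Spry1 and -0.14 (SE 0.10) for Spry2, and neither passed (adjusted p = 0.624 and 0.515 from edgeR).

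Spry4 thereby made up 9.38% to 10.3% of the summed TPM of the 3 Sprouty genes in control, 17.7% to 25.6% in WT bleomycin and 13.6% to 16.9% in CB1R KO bleomycin libraries, and the 3 ranges did not overlap. The sum itself overlapped between control (105.2 to 128 TPM) and WT bleomycin (104.5 to 120 TPM), with CB1R KO bleomycin at 87.9 to 118 TPM. Spry1 stayed the most abundant of them, at 58.5 ± 2.76 TPM (SD, n = 5) in WT bleomycin against 29.4 ± 1.92 TPM for Spry2 and 24.6 ± 4.71 TPM for Spry4.

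Of the phosphatases, Dusp6 rose and Dusp4 did not pass. Dusp6, which acts on ERK in the cytoplasm, was at 141, 128, 135 and 135 CPM in control libraries 3, 21, 24 and 26. After bleomycin, WT libraries 4, 2, 5, 4-B2 and 7 had 181, 191, 220, 174 and 199 CPM of Dusp6. CB1R KO libraries 8, 9, 10 and 11 had 190, 162, 156 and 148 CPM. All bleomycin libraries of either genotype were above all control libraries, and CB1R KO library 8 lay within the WT bleomycin range. The log2 fold change of Dusp6 was 0.52 in WT bleomycin (SE 0.08, adjusted p = 0.000107 from edgeR) and 0.28 in CB1R KO bleomycin (SE 0.08, adjusted p = 0.0175 from edgeR), both against control. The call in CB1R KO bleomycin was lost without control library 21 (0.26, adjusted p = 0.0503 from edgeR). The difference of -0.24 between CB1R KO and WT bleomycin (SE 0.08) did not pass (adjusted p = 0.157 from edgeR).

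Dusp4, a nuclear phosphatase of ERK, was at 19.5 to 26.2 CPM in control, 19.2 to 26.2 CPM in WT bleomycin and 17.6 to 19.1 CPM in CB1R KO bleomycin libraries. Every CB1R KO library was below every library of both other groups, by little: library 11, the highest, had 19.1 CPM and the lowest WT bleomycin library 19.2 CPM. The log2 differences of CB1R KO were -0.23 (SE 0.11, adjusted p = 0.297 from edgeR) from WT bleomycin and -0.26 (SE 0.11, adjusted p = 0.0924 from edgeR) from control, and that of WT bleomycin from control was -0.03 (SE 0.11, adjusted p = 0.852 from edgeR). In TPM Dusp6 was 5.29 to 6.84 times Dusp4 in control, 7.52 to 10.2 times in WT bleomycin and 7.68 to 10.6 times in CB1R KO bleomycin libraries.

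The receptors moved in opposite directions. Fgfr2 was at 152, 170, 152 and 136 CPM in control libraries 3, 21, 24 and 26. WT bleomycin libraries 4, 2, 5, 4-B2 and 7 had 85.0, 85.1, 82.6, 75.3 and 62.9 CPM of Fgfr2. CB1R KO libraries 8, 9, 10 and 11 had 92.5, 113, 66.0 and 93.6 CPM. Every bleomycin library was below every control library, and 3 of the 4 CB1R KO libraries were above every WT bleomycin library. Fgfr2 fell by 0.96 on the log2 scale in WT bleomycin (SE 0.13, adjusted p = 2.7e-05 from edgeR) and by 0.74 in CB1R KO bleomycin (SE 0.14, adjusted p = 0.000789 from edgeR), both against control. The difference between the bleomycin groups was 0.22 (SE 0.13, adjusted p = 0.399 from edgeR).

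Fgfr1 was at 66.0, 81.5, 83.4 and 81.5 CPM in control libraries 3, 21, 24 and 26. WT bleomycin libraries 4, 2, 5, 4-B2 and 7 had 97.5, 104.6, 135, 119 and 147 CPM of Fgfr1, and CB1R KO libraries 8, 9, 10 and 11 had 89.8, 87.3, 106 and 107 CPM. All bleomycin libraries lay above all control libraries, and the bleomycin groups overlapped. Fgfr1 rose in WT bleomycin (log2 fold change 0.63, SE 0.12, adjusted p = 0.000555 from edgeR), and the differences of CB1R KO bleomycin from control (0.32, SE 0.12, adjusted p = 0.0567 from edgeR) and from WT bleomycin (-0.31, SE 0.12, adjusted p = 0.204 from edgeR) did not pass. The first of these 2 differences passed under 9 of 24 alternative settings.

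The ratio of Fgfr1 to Fgfr2 TPM was under 1 in every control library, from 0.378 to 0.514, and over 1 in every WT bleomycin library, from 1.07 to 2.17. It was 0.958, 0.688, 1.498 and 1.04 in CB1R KO libraries 8, 9, 10 and 11. In mean TPM, Fgfr2 was at 65.0 ± 5.16 (SD, n = 4) and Fgfr1 at 29.6 ± 2.98 (SD, n = 4) in control lungs, and Fgfr2 was at 32.6 ± 4.90 (SD, n = 5) and Fgfr1 at 46.6 ± 6.49 (SD, n = 5) in WT bleomycin lungs.

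**Figure D3:**
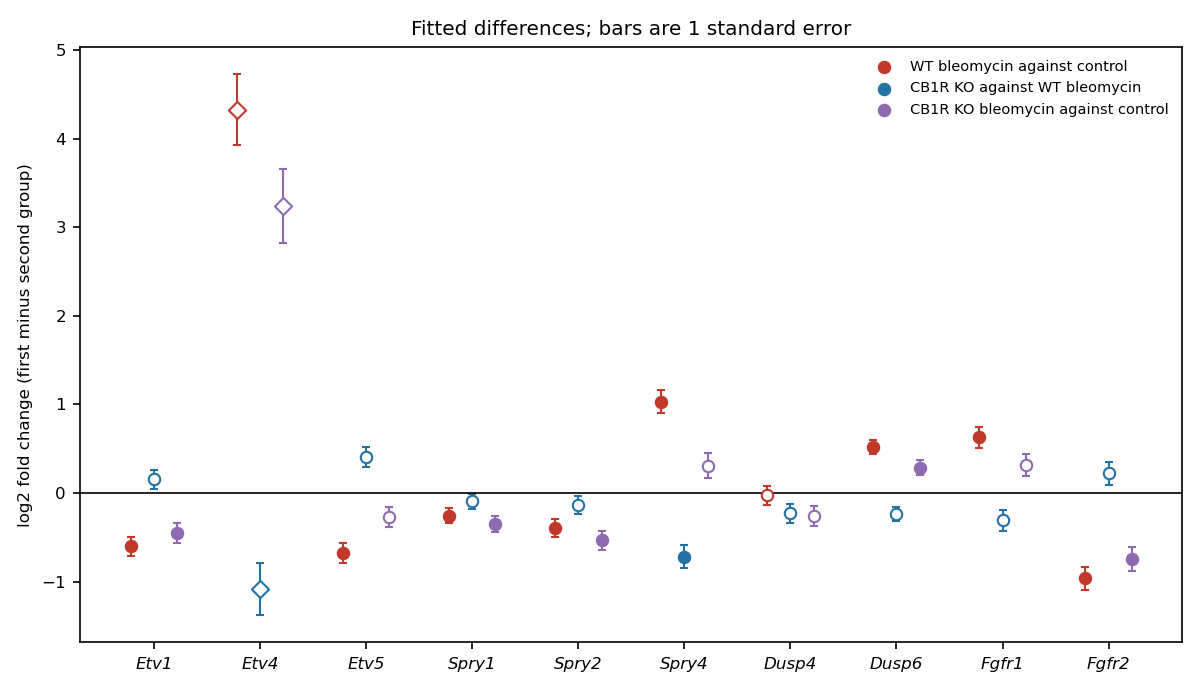
Log2 fold change (y axis) of each gene in the 3 comparisons, with bars of 1 SE; filled circles passed an adjusted p of 0.05, open circles did not, and diamonds mark Etv4, which was not tested. Spry4 is the one filled circle for CB1R KO against WT bleomycin, at -0.72.

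Markers of lung cell types moved in the same libraries. For the counts of markers below, 25.0% of all genes passed as higher and 23.9% as lower in WT bleomycin against control. Between CB1R KO and WT bleomycin 0.359% of all genes passed as higher and 0.620% as lower. The 9 type II cell markers summed to 32853 to 38374 TPM in control, 20248 to 24062 TPM in WT bleomycin and 25185 to 39122 TPM in CB1R KO bleomycin libraries. Of the 9, 5 fell and 1 rose in WT bleomycin against control, and 3 (Sftpc, Sftpa1 and Lamp3, of surfactant and its storage) were higher in CB1R KO than in WT bleomycin. Etv5 had group means in the order control, CB1R KO bleomycin, WT bleomycin. Of the 9 markers, Sftpd, Napsa and Lpcat1 did not have this order and were highest in CB1R KO bleomycin lungs. Sftpd averaged 538 CPM in control, 665 CPM in WT bleomycin and 862 CPM in CB1R KO bleomycin lungs. Etv5 and Fgfr2 were measured in the same whole tissue, where fewer cells of a type and less RNA per cell cannot be told apart. The 6 markers of transitional alveolar epithelium, a state between type II and type I cells, summed to 585 to 638 TPM in control, 965 to 1266 TPM in WT bleomycin and 917 to 991 TPM in CB1R KO bleomycin libraries. Of these, 5 rose in WT bleomycin against control and Cldn4, which encodes a tight junction protein, was lower in CB1R KO than in WT bleomycin (log2 fold change -0.90, adjusted p = 0.0314 from edgeR). The 7 fibroblast markers summed to 646 to 682 TPM in control, 1635 to 2132 TPM in WT bleomycin and 1322 to 1791 TPM in CB1R KO bleomycin libraries, with 3 higher and 1 lower in WT bleomycin against control and 0 that passed in CB1R KO against WT bleomycin. No marker of these 3 lists was at 0 in any library. The part of these cells in the changes of the 10 genes was not tested.

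The other marker lists gave these counts in WT bleomycin against control, where 25.0% of all genes passed as higher and 23.9% as lower. All 6 markers of monocyte-derived macrophages rose, 4 of 4 cardiac muscle markers, 5 of 6 endothelial and 2 of 3 adipocyte markers fell, and 1 of 4 ciliated cell, 2 of 6 T and NK cell and 1 of 5 alveolar macrophage markers fell. Of 7 type I cell markers 1 rose and 3 fell, of 4 smooth muscle markers 1 rose and 1 fell, and of 4 B and plasma cell markers 1 rose and 3 fell. Between CB1R KO and WT bleomycin, where 0.979% of all genes passed, 1 endothelial marker and 1 T and NK cell marker were higher. There 0 markers of the type I cell, smooth muscle, macrophage, B and plasma cell, ciliated cell, adipocyte and cardiac muscle lists passed the test.

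The genes were also compared library by library, as a description over 13 libraries that share sequencing depth and cell make-up within each library. Over the pooled libraries Spry4 and Dusp6 had a Pearson r of log2 CPM of 0.90, Etv4 and Fgfr1 of 0.85, and Etv4 and Fgfr2 of -0.90. These values hold the differences between groups, so r was also taken of the deviations from the group means. Spry4 and Dusp6 then had r = 0.59 and Etv4 and Fgfr1 r = 0.54. Etv4 with Fgfr2 went to -0.28, with Spry4 from 0.76 to -0.13 and with Dusp6 from 0.83 to -0.01. Etv4 spread the most in control libraries, from -2.55 to -0.69 log2 CPM, where it had 1.43 to 8.06 estimated counts. Its r within groups thus holds counting error. Etv5 and Spry4, which differed in the direction of their response to bleomycin and had a pooled r of -0.66, had r = 0.66 within groups. Etv1 and Dusp6 likewise went from -0.62 to 0.68. The group means hold both label styles, and control library 26, with a capitalised label, was the lowest control for both Etv5 and Spry4. The WT bleomycin libraries with capitalised labels, 4-B2 and 7, were the lowest of their group for Spry4, and library 7 was also the lowest for Etv5. No r was taken among lower-case labels alone. Of the 45 pairs, 12 had an r over 0.5 within groups and 2 had one under -0.5, Etv5 with Fgfr1 and Fgfr1 with Fgfr2.

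**Figure D4:**
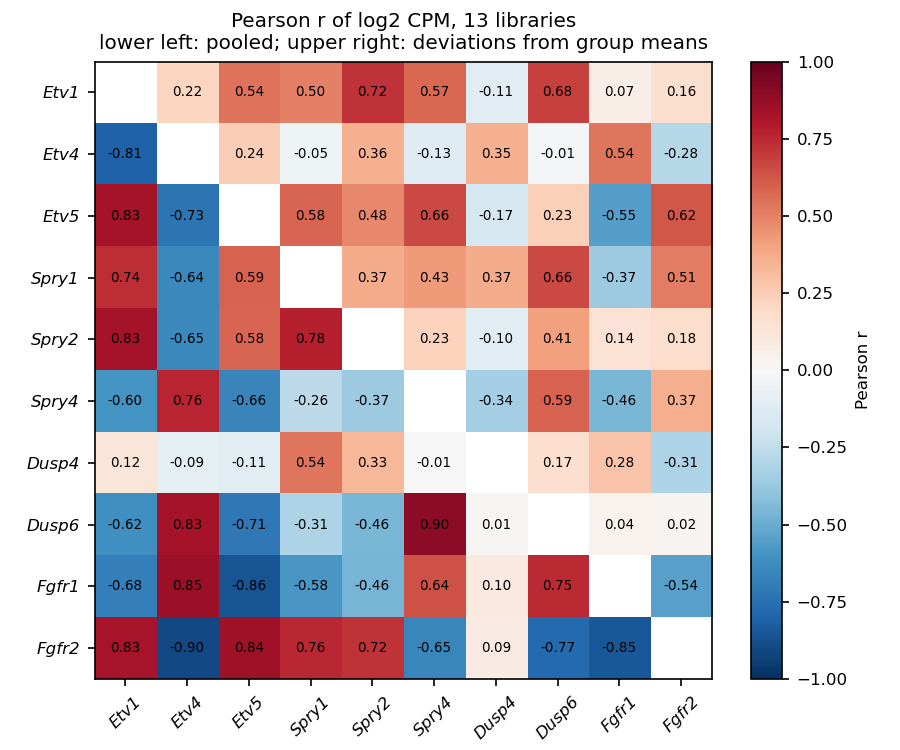
Pearson r between the log2 CPM of each pair of the 10 genes over 13 libraries (colour and number), pooled in the lower left and of deviations from group means in the upper right. Etv5 and Spry4 change from -0.66 pooled to 0.66 within groups.

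Among 14451 other genes with a mean of at least 1 CPM, the 5 with the highest pooled r with Etv4 were Dcakd (0.99), Fndc3b (0.99), Loxl2 (0.99), Naaa (0.98) and Col28a1 (0.98). Their mean levels followed the order control, CB1R KO bleomycin, WT bleomycin. These were 42.5, 128 and 174 CPM for Loxl2 and 2.94, 17.9 and 35.6 CPM for Col28a1. Etv4 was selected on this order, so the order follows from choosing genes by their r with Etv4. Within groups Grik4 (0.92), Tent5c (0.89), Ruvbl1 (0.88) and Dcakd (0.85) were among the 5 highest, so Dcakd stood in both lists. They are the highest of 14451 values over 13 libraries, and they hold the counting error of Etv4 in control lungs. Grik4 itself averaged 1.02 to 1.25 CPM by group.

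Promoter windows of the members show which DNA lies before their start sites. The RefSeq windows used here, on GRCm38.p6, were of 6 of the 10 genes, Etv1, Etv5, Spry1, Spry2, Dusp6 and Fgfr2. Etv1 and Etv5 had 2 starts each. That the other members have no window here does not show that RefSeq lacks a start for them. The 250 bases before each start were searched on both strands for the ETS-type letters CCGGAA and AGGAAG, which share the core GGAA that ETS proteins such as Etv4 recognise. None of the 8 windows held CCGGAA, which 12.03% of all 32851 windows of this length held, and 3 held AGGAAG, which 29.5% of all windows held. These 3 are shown because they hold a match. Dusp6 rose and Etv1 and Fgfr2 fell in WT bleomycin against control. Etv5, Spry1 and Spry2, whose windows held no match, fell as well. A link between match and response was not tested. Capitals mark the match, which reads CTTCCT where it lies on the other strand. Each runs 5′ to 3′ along its gene and ends at the base before the start. That of Dusp6 is chr10:99262981-99263230 on the plus strand, that of the first Etv1 start chr12:38779832-38780081 on the plus strand and that of Fgfr2 chr7:130266809-130267058 on the minus strand. The match begins 210 bases before the start in Dusp6, 8 bases before it in Etv1 and 208 bases before it in Fgfr2.
Dusp6: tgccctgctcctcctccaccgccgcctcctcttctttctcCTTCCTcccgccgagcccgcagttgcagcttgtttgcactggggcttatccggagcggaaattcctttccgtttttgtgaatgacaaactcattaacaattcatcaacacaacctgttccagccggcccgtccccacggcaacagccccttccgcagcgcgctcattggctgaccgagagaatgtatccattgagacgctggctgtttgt
Etv1: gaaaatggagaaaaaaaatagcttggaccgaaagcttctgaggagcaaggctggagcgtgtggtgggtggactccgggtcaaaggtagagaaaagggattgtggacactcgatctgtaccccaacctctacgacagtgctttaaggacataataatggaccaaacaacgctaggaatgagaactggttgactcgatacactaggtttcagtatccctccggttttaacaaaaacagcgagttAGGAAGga
Fgfr2: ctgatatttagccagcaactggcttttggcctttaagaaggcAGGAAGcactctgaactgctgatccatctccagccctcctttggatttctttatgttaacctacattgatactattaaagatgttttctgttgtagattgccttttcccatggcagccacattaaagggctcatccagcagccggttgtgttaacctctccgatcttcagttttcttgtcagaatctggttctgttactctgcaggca

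Outside the members, 6 lists of the same pathway held 93 genes, of which 91 were in the tables and 78 had counts enough for the test. In WT bleomycin against control 23 of the 78 rose and 25 fell (61.5%, where 48.9% of all genes passed). Between CB1R KO and WT bleomycin 2 were higher and 4 lower (7.69%, where 0.979% of all genes passed). In CB1R KO bleomycin against control 14 rose and 19 fell (42.3%, where 35.4% of all genes passed). The medians of the log2 fold changes of the 78 were 0.05, -0.05 and -0.01 in these comparisons. The shares over all genes given here also stand beside the counts of each list below.

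Of the FGF ligands, 7 of 18 were tested, and 2 rose and 3 fell in WT bleomycin against control. Fgf23, a hormone of phosphate balance made mainly in bone, had 0, 5, 1 and 3 estimated counts in control libraries 3, 21, 24 and 26. For the WT bleomycin libraries 4, 2, 5, 4-B2 and 7 these were 91, 43, 59, 92 and 80, or 2.66 to 6.37 CPM, and CB1R KO libraries 8, 9, 10 and 11 had 14, 11, 15 and 68 counts, or 0.663 to 1.26 CPM. The 3 groups did not overlap in CPM. Fgf23 had a log2 fold change of 5.00 (SE 0.49, adjusted p = 1.9e-06 from edgeR) in WT bleomycin against control and of -2.25 (SE 0.35, adjusted p = 0.0177 from edgeR) in CB1R KO against WT bleomycin.

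Fgf2, which binds many FGF receptors, had 43.2 to 50.2 CPM in control, 79.0 to 113 CPM in WT bleomycin and 58.0 to 67.7 CPM in CB1R KO bleomycin libraries, again without overlap. It rose by a log2 fold change of 0.97 in WT bleomycin (SE 0.11, adjusted p = 7.7e-06 from edgeR) and was lower in CB1R KO than in WT bleomycin (-0.53, SE 0.11, adjusted p = 0.0371 from edgeR). WT libraries 4-B2 and 7, with capitalised labels, held 107 and 113 CPM of Fgf2, and the WT libraries with lower-case labels 79.0 to 81.3 CPM. Fgf1, Fgf7 and Fgf10, the last 2 of which are mesenchymal ligands of Fgfr2, fell in WT bleomycin by 0.96, 0.70 and 0.41 on the log2 scale. Their differences between CB1R KO and WT bleomycin were 0.36, 0.22 and 0.23 and did not pass (adjusted p = 0.143, 0.62 and 0.439 from edgeR).

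Of the other receptors and co-receptors, 9 of 10 were tested, and 4 rose and 3 fell in WT bleomycin against control. Fgfr4 fell the furthest of the named ones, from 40.2 to 54.0 CPM in control to 10.9 to 16.7 CPM in WT bleomycin (log2 fold change -1.86, SE 0.19, adjusted p = 2.8e-06 from edgeR). It was at 18.3 to 38.7 CPM in CB1R KO bleomycin libraries, each above every WT bleomycin library (1.04, SE 0.19, adjusted p = 0.0266 from edgeR). Fgfr3 fell by 0.89 and the heparan sulphate proteoglycan Sdc2 by 0.37, while Sdc1 and Gpc1, proteoglycans that hold FGF at the cell surface, rose by 0.66 and 0.92. None of these 4 passed between CB1R KO and WT bleomycin.

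The cascade from Ras to ERK had 22 genes tested, with 5 higher and 6 lower in WT bleomycin against control and 0 that passed between CB1R KO and WT bleomycin. The median log2 fold changes of this list were -0.04 and 0.00. The adaptor Shc1 (0.52) and the kinase Rps6ka3 (0.45) rose, and the adaptor Gab1 (-0.62), the exchange factor Sos2 (-0.44) and the kinase Rps6ka1 (-0.44) fell in WT bleomycin. Shc1 came closest to the threshold between CB1R KO and WT bleomycin among these 5, at -0.19 (SE 0.04, adjusted p = 0.0572 from edgeR).

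Of the other feedback inhibitors 12 of 13 were tested, with 3 higher and 4 lower in WT bleomycin against control. Spred1 (0.54), Spred3 (0.71) and Dusp5 (0.66) rose, and Dusp7 (-0.42) and Il17rd (-0.72), an inhibitor in the receptor complex, fell. Il17rd was at 70.1 to 73.2 CPM in control, 38.6 to 47.4 CPM in WT bleomycin and 51.6 to 59.5 CPM in CB1R KO bleomycin libraries. It was the 1 gene of the list that passed between CB1R KO and WT bleomycin (log2 fold change 0.33, SE 0.07, adjusted p = 0.0416 from edgeR). Spred1, Spred3 and Dusp5 differed there by -0.21, -0.41 and -0.34 and did not pass (adjusted p = 0.219, 0.125 and 0.241 from edgeR).

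Of 7 other genes commonly induced by ERK, 5 rose and 0 fell in WT bleomycin against control, with a list median of 0.60. Of all genes tested, 25.0% passed as higher and 23.9% as lower in that comparison. They were Ccnd1 (0.88), Phlda1 (1.14), Fosl1 (2.48), Epha2 (0.60) and Ier3 (0.55). All 7 had a negative log2 fold change in CB1R KO against WT bleomycin, with a median of -0.35 against 0.00 over all genes. Of these 7 genes 1 passed, Fosl1, a subunit of the transcription factor AP-1, where 0.620% of all genes passed as lower. Fosl1 was low, with 3.16 to 4.45 estimated counts in control, 14.64 to 27.7 in WT bleomycin and 4.41 to 7.01 in CB1R KO bleomycin libraries. These were 0.18 to 0.258, 0.95 to 1.94 and 0.129 to 0.458 CPM, with the lowest level in CB1R KO library 11, the most deeply sequenced, and with overlap between control and CB1R KO bleomycin. Its log2 fold change was -2.28 in CB1R KO against WT bleomycin (SE 0.37, adjusted p = 0.0186 from edgeR). Ier3 and Epha2 differed by -0.53 and -0.35 (adjusted p = 0.0948 and 0.0903 from edgeR). Phlda1 and Ccnd1 differed by -0.25 and -0.10 (adjusted p = 0.236 and 0.522 from edgeR). Epha4, named after its values were seen, was split within groups, at 2.08, 21.8, 2.88 and 24.0 CPM in control libraries 3, 21, 24 and 26. WT bleomycin libraries 4, 2, 5, 4-B2 and 7 had 25.7, 25.8, 2.62, 25.5 and 1.85 CPM of Epha4. The CB1R KO bleomycin libraries had 1.27 to 2.17 CPM. Epha4 did not pass between CB1R KO and WT bleomycin (log2 fold change -3.31, adjusted p = 0.0926 from edgeR) and was lower in CB1R KO bleomycin than in control (-2.95, adjusted p = 0.0244 from edgeR). The last difference holds the high values of control libraries 21 and 26, and CB1R KO library 10 lay above control library 3.

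Of the other ETS factors 21 of 23 were tested, with 4 higher and 9 lower in WT bleomycin against control. Among the 5 with the lowest p, Erg (-0.56), an endothelial factor, and Ets2 (-0.72) fell, and Etv6 (0.65), Spi1 (0.69), a factor of myeloid cells, and Erf (0.50), a repressor that ERK expels from the nucleus, rose. Erf was the 1 factor that passed between CB1R KO and WT bleomycin. It had 52.4 to 64.4 CPM in control, 72.7 to 90.9 CPM in WT bleomycin and 59.6 to 67.2 CPM in CB1R KO bleomycin libraries (log2 fold change -0.39, SE 0.08, adjusted p = 0.0314 from edgeR).

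**Figure D5:**
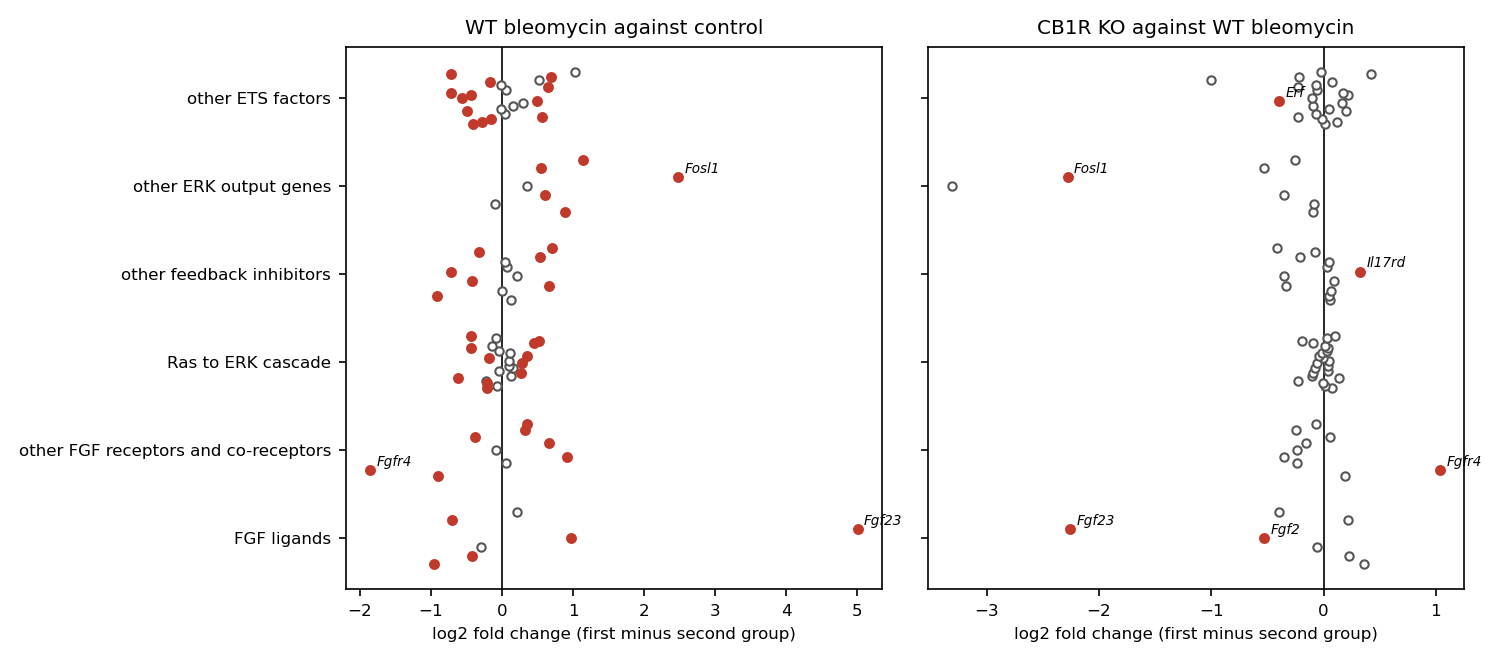
Log2 fold change (x axis) of each tested gene of the 6 pathway lists in WT bleomycin against control (left) and CB1R KO against WT bleomycin (right); red points passed an adjusted p of 0.05, open points did not, and names mark passing genes (all on the right, those past 1.5 on the left). The right panel has 6 red points, among them Fgf23 at -2.25, Fosl1 at -2.28 and Fgfr4 at 1.04.

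The 6 pathway calls between CB1R KO and WT bleomycin depended on which libraries entered. There were 0 without CB1R KO library 9 or 11, 1 without CB1R KO library 8, 2 without WT library 4-B2 or 7, 3 without WT library 5 and 11 without CB1R KO library 10. Over all genes the calls of this comparison went from 150 to 1, 3 and 653 without CB1R KO libraries 9, 11 and 10. Among lower-case labels 0 of the 78 passed, where 6 of all genes did.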

How the data were processed

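RNA was extracted from the lower right lung lobe of 13 mice, and oligo(dT)-selected NEBNext Ultra II libraries were read as paired ends of 150 bases on an Illumina HiSeq. The authors quantified reads with Kallisto (version not given in the sources used here) on the mouse transcripts of Ensembl release 105 (GRCm39), and the deposited tables hold the estimated counts and the TPM that the authors summed over the protein-coding transcripts of each of 20270 gene symbols. Of the count values 70.2% were not whole. One column of the TPM table matched no sample and was not used, and the 13 files of 1 sample each repeat the series tables.

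Samples were grouped by treatment and genotype in their labels. Estimated counts were rounded, filtered with filterByExpr, scaled by TMM and fitted in edgeR 4.0.16 under R 4.3.3 by its quasi-likelihood test, with 1 coefficient per group and all 13 libraries, in place of the DESeq2 of the study's methods. P-values were adjusted by Benjamini and Hochberg over 15315 genes. Log2 CPM for correlations used a prior count of 2. The fit was also run on simulated counts, drawn from levels and spread in these libraries, and no result here rests on that run. With the totals above, genes under about 10 counts, such as Etv4 in control lungs, have wide counting error.

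The members and all lists were chosen with earlier results of these data known. Named genes were the 10 members, up to 5 genes per pathway list with the lowest p among those past 0.05 in WT bleomycin against control or CB1R KO against WT bleomycin, and the 5 genes most like Etv4 by each measure. A gene chosen by the last of these rules is not reported here. The fit was repeated with every gene kept, with genes of 10 or more counts in all libraries, with upper-quartile and with RLE scaling, with DESeq2 1.42.0, with limma 3.58.1 on log2 TPM with a pseudocount of 1 or 0.1, with edgeR on 2 groups alone, with label style as a term, with only lower-case labels, with CB1R KO library 11 thinned to the depth of the others, and with each library left out in turn. Promoter windows were RefSeq's, on GRCm38.p6, a different build from that of the tables, and were matched by symbol. Plots were drawn with matplotlib 3.10.9 in Python 3.11.15.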

Additional observations from a re-analysis of the deposited data

Results flagged for a closer look

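Within each group of 4 or 5 libraries, the highest and lowest log2 CPM of 40 genes (the 10 members and the 30 named pathway genes) were set against Dixon's 95% limit for a single stray value. Of 120 groups tested 6 passed, where chance gives about 1 in 20, and 1 of them was a member. Fgfr1 was at 66.0 CPM in control library 3, where the other controls lay between 81.5 and 83.4 CPM. Control library 3 was also apart for Fgf7 (23.2 CPM against 26.9 to 27.5), Sdc1 (218 CPM against 248 to 253) and Dusp7 (133 CPM against 170 to 178). Rps6ka3 was at 117 CPM in control library 24 against 108 to 109 CPM, and Rps6ka1 was at 77.0 CPM in CB1R KO library 11 against 83.9 to 84.4 CPM.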

How the results depend on the processing

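Of 717 values of single genes under 24 alternatives, 712 kept their direction, and the 5 others were of Dusp4 in WT bleomycin against control, which was not called. The counts of members and pathway genes called against control stayed within 1.5 times under every alternative. Between CB1R KO and WT bleomycin the 1 member called became 2 with DESeq2 (Spry4 and Etv5) and 0 with limma at either pseudocount, where Spry4 had an adjusted p = 0.0549 and 0.0581, and ranged over 0 to 2 with one library left out. The 6 pathway genes called became 12 with DESeq2, 2 with the style of the labels as a term and 0 among lower-case labels. They ranged over 0 to 11 with one library left out. Over all genes the calls went from 150 to 646 with DESeq2, 41 with the label term and 6 among lower-case labels. With limma they were 109 and 93 at pseudocounts of 1 and 0.1. The cause of these changes was not tested. Thinning CB1R KO library 11 left 1 member called. On log2 TPM with a pseudocount of 1, the log2 fold change of Etv4 was 2.10 in WT bleomycin and 1.34 in CB1R KO bleomycin against control, since the pseudocount is larger than its level in control lungs. No paired analysis was possible because the groups share no replicate numbers in the labels. Of the members, Etv4 is the one whose low counts limit its fold changes.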
